A study of Mus musculus with 4 samples.

Results

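The genes of 10 transcription factors of the pluripotency network (Pou5f1, Sox2, Nanog, Klf2, Klf4, Esrrb, Zfp42, Sall4, Stat3 and Tcfcp2l1) were examined for peaks of Bio-Myc and Max in mouse embryonic stem cells (ESCs). They were taken by name from GENCODE M1, the annotation on mm9, in which all 10 were found among 37310 genes, 22380 of them protein-coding. The data were 2 lists of ChIP-Seq peaks. The Bio-Myc list came from chromatin purified on streptavidin beads from 1 stable clone of the E14 ESC line, in which Myc with an N-terminal peptide that the BirA ligase biotinylates was expressed from the ubiquitous EF1α promoter. The Max list came from parental wild-type E14 cells with an antibody against Max, and the controls of the peak calling were a mock streptavidin ChIP and an IgG ChIP. The description of the mock sample names parental wild-type cells, whereas the methods name cells with the ligase and no tagged protein. Each ChIP was 1 library without a replicate, so no value below has an error between cultures and no difference was tested. Each list gives the positions of its peaks and a score, 10 times the negative log10 of the p-value from MACS, of which 80 is the lowest kept. The Bio-Myc list had 3962 entries (median score 129) and that of Max 11570 (median score 160). The lists carry no read counts, so the depth of the libraries is unknown, and scores were ranked only within their own list. They carry no expression values either, and the identity of the cells could not be checked in them.

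Myc reaches DNA as a dimer with Max through the helix-loop-helix and leucine zipper domains of both proteins, and Max also pairs with itself and with Mxd and Mga proteins. The preferred site of these dimers is the E-Box CACGTG, a palindrome that reads the same on both strands. Mouse ESCs are kept undifferentiated by a core of Pou5f1 (Oct4), Sox2 and Nanog, together with naive factors such as Klf2, Klf4, Esrrb and Tcfcp2l1. Some of the naive factors respond to LIF through Stat3. The transcription of many of these genes is known to be controlled by distal enhancers in addition to their promoters.

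Max lay close to a start site in most of these genes, and Bio-Myc in a share near that of all protein-coding genes. A Max peak lay within 1 kb of an annotated transcription start site (TSS) in 7 of the 10 genes (Pou5f1, Sox2, Klf2, Esrrb, Sall4, Stat3 and Tcfcp2l1), beside 34.8% of all protein-coding genes (95% Wilson interval 34.2 to 35.4%, counting error only). A Bio-Myc peak lay within 1 kb in 2 of the 10, Stat3 and Esrrb, beside 14.6% of protein-coding genes (14.2 to 15.1%). Both of these also had Max, beside 12.7% of protein-coding genes with both, and Nanog, Klf4 and Zfp42 had neither, beside 63.2%. The count rests partly on how many start sites a gene has in the annotation. Pou5f1 has 7 and Esrrb has 5, while the median protein-coding gene has 2, and both were counted through internal start sites only. Stat3 has 14, but its peaks also lay within 1 kb of the outermost one. With only the outermost TSS of each gene, Bio-Myc was left at Stat3 alone (13.6% of protein-coding genes) and Max at 5 genes, Sox2, Klf2, Sall4, Stat3 and Tcfcp2l1 (32.2%). Within 5 kb of any TSS, Zfp42 joined the genes with Max, which made 8 of 10 beside 38.6%, and Bio-Myc stayed at 2 of 10 beside 16.6%. Within 50 kb, 9 genes had a Max peak (60.3%) and 5 a Bio-Myc peak (36.1%). Klf4 was the only member without a peak of either list in that range, beside 37.7% of protein-coding genes.

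**Figure D1:**
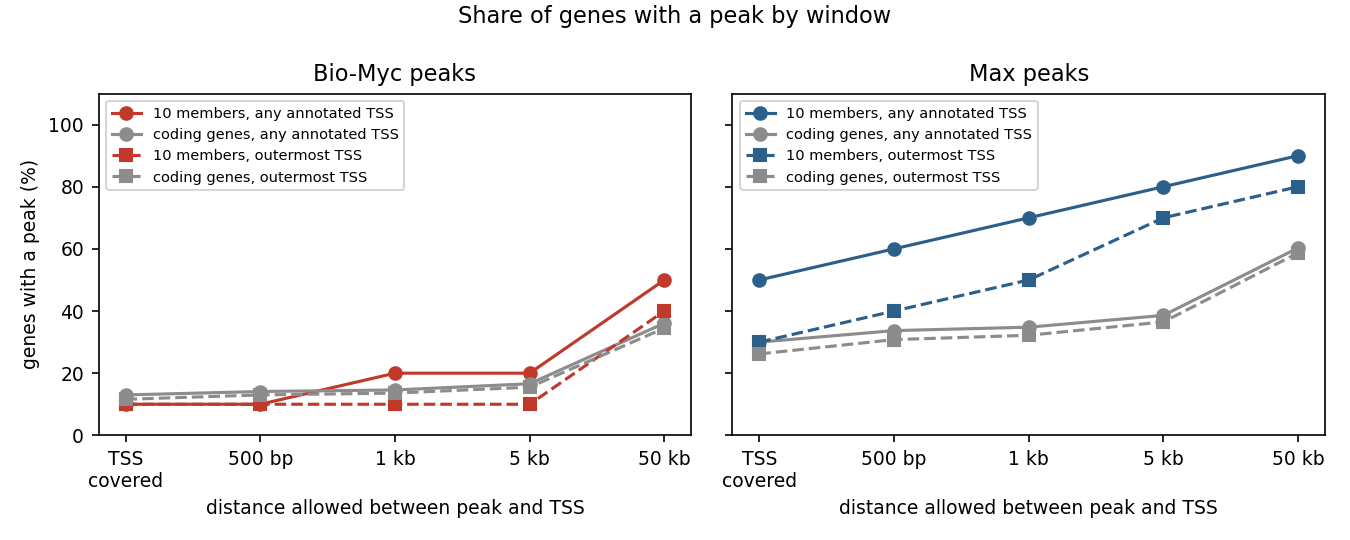
Share of genes with a Bio-Myc peak (left) or a Max peak (right) by the distance allowed between peak and TSS, for the 10 members (coloured) and for all 22380 protein-coding genes (grey), counted from any annotated TSS (circles, solid) or the outermost TSS (squares, dashed). At 1 kb from any TSS the members stand at 7 of 10 for Max beside 34.8% of coding genes and at 2 of 10 for Bio-Myc beside 14.6%.

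In all, 35 Max peaks and 8 Bio-Myc peaks lay within 50 kb of a TSS of these genes. An overlap of 1 bp or more with Max was seen for 5 of the 8 (62.5%, beside 74.9% over the whole Bio-Myc list), and an overlap with Bio-Myc for 6 of the 35 (17.1%, beside 26.2% over the whole Max list). The Bio-Myc peaks were at Esrrb (4 peaks), Stat3, Klf2, Nanog and Sall4 (1 each). Their scores ran from 89.6 to 167, and 5 of the 8 were above the median of the list. The Max peaks ran from 81.45 to 635, with a median of 136, and 12 of the 35 were above the median of their list. Some of these peaks belong by position to other genes. For 21 of the 35 Max peaks the nearest protein-coding TSS was that of a member, and 4 Max peaks covered a TSS of a neighbour (H2-Q10 and Tcf19 beside Pou5f1, Stat5a and Stat5b beside Stat3).

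**Figure D2:**
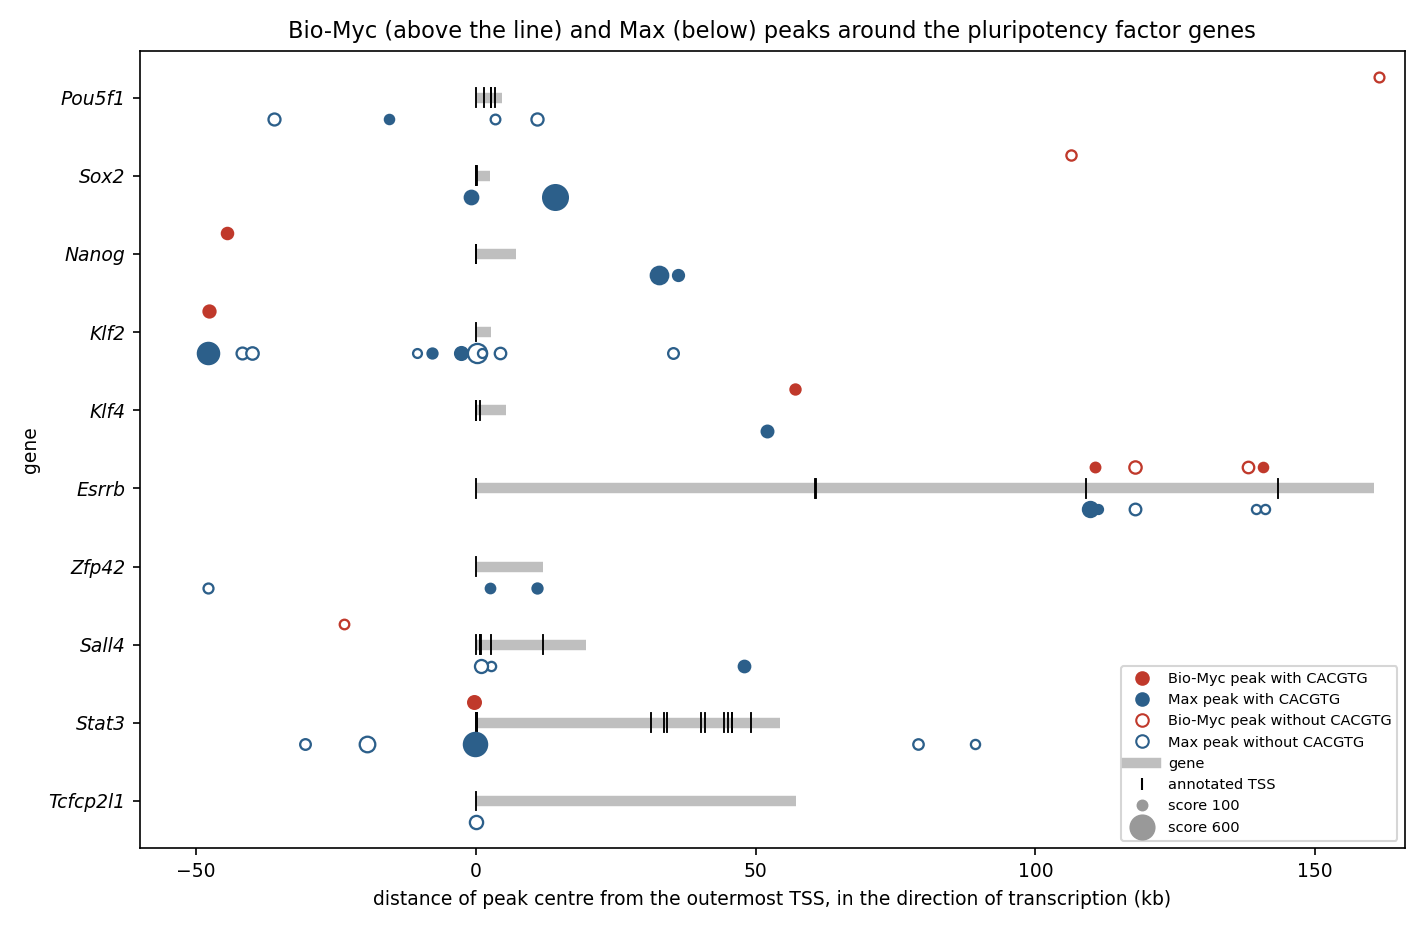
Peaks of Bio-Myc (red, above each gene) and Max (blue, below) within 50 kb of any TSS of the 10 genes, plotted by the distance of the peak centre from the outermost TSS in kb. The nearest peaks beyond 50 kb are added for Pou5f1, Sox2 and Klf4, grey bars are the genes, ticks are TSSs, the area of a circle follows the score, and filled circles hold CACGTG. Stat3 alone has a peak of each list over its outermost TSS, and the peaks of Esrrb sit inside the gene, far from its outermost TSS.

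Stat3, the transcription factor that carries the LIF signal into the nucleus, was the only member with both proteins over its outermost TSS. It is annotated as ENSMUSG00000004040.10 (chromosome 11, minus strand, 100746412 to 100800854). Its Bio-Myc peak (100800654 to 100801715) had a score of 167, above that of 66.7% of the list, and its Max peak (100800255 to 100801668) a score of 558, above that of 93.4% of the list. The peaks shared 1015 bp, and both covered the outermost TSS and reached into the 5′ UTR. The part in common held 3 E-Boxes, 353, 383 and 705 bp upstream of the outermost TSS. Of the peaks of each list, 3.31% of Bio-Myc and 1.7% of Max held 3 or more. The 3 E-Boxes are shown here because they are the only ones under both proteins at an outermost promoter of this group. They are read 5′ to 3′ on the strand of the gene, in mm9 (chr11:100801522-100801597 and chr11:100801185-100801260, minus strand), with CACGTG in capitals.

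Stat3, farther E-Box: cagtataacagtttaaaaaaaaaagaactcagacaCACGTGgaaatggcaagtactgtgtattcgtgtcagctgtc

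Stat3, nearer pair: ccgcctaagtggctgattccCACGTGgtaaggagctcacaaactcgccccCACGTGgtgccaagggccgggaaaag

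Measured from the middle of each peak, the nearer pair lay 23 and 53 bp away for Bio-Myc and 246 and 276 bp away for Max, whose middle was closer to the TSS. The base on the 5′ side of the box was C on both strands in each of the nearer pair. Further Max peaks without Bio-Myc lay 18.9 kb and 30.1 kb upstream of Stat3, the latter 54 bp from a TSS of Ptrf, and over the TSSs of Stat5a (score 113) and Stat5b (score 87.5), which encode relatives of Stat3.

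Pou5f1, Sox2 and Nanog, the core of the network, had no Bio-Myc peak within 1 kb of a TSS. At Pou5f1 (ENSMUSG00000024406.9, chromosome 17, plus strand, 35642982 to 35647721), which encodes Oct4, the region within 1 kb of the outermost TSS held no peak of either list. The Max peak counted for it (35646080 to 35646843) was centred 3479 bp inside the gene, in a coding exon, and covered the start site of a shorter transcript 3348 bp from the outermost one. Its score of 97.05 was above that of 16.3% of the Max list, and it held no CACGTG. The other Max peaks near Pou5f1 were 15.2 kb upstream with a score of 88.45 and 1 E-Box, and over the TSSs of H2-Q10 and Tcf19. Bio-Myc was found no closer than 158 kb downstream, over a TSS of Vars2.

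Sox2, the HMG-box partner of Oct4, had Max alone, on both sides of the gene. Sox2 (ENSMUSG00000074637.3) occupies 34548927 to 34551383 of chromosome 3 (plus strand). The first Max peak (34547703 to 34548394, score 188) ended 533 bp upstream of the TSS and held 1 E-Box, 739 bp upstream of it. The second (34562537 to 34563504) lay 13.5 kb downstream with a score of 635, the highest of the 35 Max peaks near these genes and above that of 95.1% of the list. Its E-Box sat 5 bp from the middle, whereas the median over all Max peaks was 117 bp. The nearest annotated TSS to this peak, 661 bp away, was that of the long noncoding RNA Sox2ot. Both stretches are printed because they hold the E-Boxes under Max without Bio-Myc at Sox2 (chr3:34548111-34548266 and chr3:34562938-34563093, mm9, plus strand, outside annotated exons).

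Sox2, upstream Max peak: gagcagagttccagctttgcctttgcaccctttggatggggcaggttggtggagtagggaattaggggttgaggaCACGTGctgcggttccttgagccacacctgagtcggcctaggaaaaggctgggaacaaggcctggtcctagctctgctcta

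Sox2, downstream Max peak: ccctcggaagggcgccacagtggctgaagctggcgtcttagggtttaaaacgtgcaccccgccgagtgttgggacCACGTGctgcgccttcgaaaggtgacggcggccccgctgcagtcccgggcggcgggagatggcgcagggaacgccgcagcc

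The downstream stretch had a GC content of 69.2% and the upstream stretch 57.1%. Neither E-Box had a T on its 5′ side on either strand. The only Bio-Myc peak within 150 kb of Sox2 (34654462 to 34655993, score 108) lay 105 kb downstream of a TSS, held no CACGTG and overlapped no Max peak, and the nearest protein-coding TSS to it was that of Sox2.

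Nanog, the homeodomain factor of the core, had no peak within 5 kb. Nanog (ENSMUSG00000012396.5) occupies 122657507 to 122664651 of chromosome 6 (plus strand). A Bio-Myc peak with a score of 131 (122612445 to 122613731) lay 43.8 kb upstream of Nanog, and the nearest protein-coding TSS, that of Dppa3, was 35674 bp from it. It did not overlap a Max peak and held 1 E-Box, 517 bp from its middle, near an end of the peak. Among the 995 Bio-Myc peaks without Max in the list, 36.1% held an E-Box. The box is shown for comparison with those under both proteins (chr6:122612509-122612634, mm9, plus strand).

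Nanog, distal Bio-Myc peak: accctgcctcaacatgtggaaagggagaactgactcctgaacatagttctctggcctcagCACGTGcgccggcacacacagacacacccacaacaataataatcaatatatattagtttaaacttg

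The Max peaks within 50 kb of Nanog, with scores of 315 and 124, were 32.2 and 35.7 kb downstream, 1633 and 331 bp from TSSs of Slc2a3, a glucose transporter gene, and each held 1 E-Box. Peaks of both lists overlapped farther downstream, at 56.5 kb (Max, score 496) and 57.2 kb (Bio-Myc, score 101), and over a TSS of Slc2a3 93.6 kb away (Max 650, Bio-Myc 177).

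The Krüppel-like factors Klf2 and Klf4, which act in the naive state and can replace each other in part, had very different surroundings. Klf2 (ENSMUSG00000055148.7, chromosome 8, plus strand, 74842932 to 74845555) had 10 Max peaks within 50 kb, and 99.3% of protein-coding genes had fewer. The strongest at the gene (74842372 to 74843728) covered the TSS with a score of 380, above that of 86.3% of the Max list. It held no CACGTG, but 1 of the related CACGCG and, in its whole length, 2 of the general form CANNTG, in which N is any base. Another peak (74843768 to 74844315, score 84.6) followed 836 bp downstream in a coding exon. Peaks 2087 bp upstream (score 171, 1 E-Box) and 3858 bp downstream (score 136, none) completed the 4 within 5 kb. Farther upstream, Max peaks lay at 7512 bp (score 104, 1 E-Box), 10.3 kb (81.45), 39.4 kb (160) and 41.4 kb (146), and downstream at 34.8 kb (119), of which only the first held CACGTG. For the peaks at 7512 bp and 10.3 kb the nearest protein-coding TSS was that of Gm10282. For those at 39.4 and 41.4 kb it was that of Ap1m1. No Bio-Myc peak lay closer to Klf2 than 47.1 kb. That peak (74794683 to 74795834, score 149) overlapped a Max peak (74794314 to 74795696, score 468) by 1014 bp, upstream of Klf2 and 17849 bp from a TSS of Ap1m1, and the shared part held 3 E-Boxes. The sequence just upstream of the Klf2 TSS (chr8:74842682-74842931) is shown beside those boxes (chr8:74794895-74794980, chr8:74795165-74795250 and chr8:74795449-74795534, all mm9, plus strand), since Max was found over both and Bio-Myc over the distal site alone.

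Klf2, upstream of the TSS: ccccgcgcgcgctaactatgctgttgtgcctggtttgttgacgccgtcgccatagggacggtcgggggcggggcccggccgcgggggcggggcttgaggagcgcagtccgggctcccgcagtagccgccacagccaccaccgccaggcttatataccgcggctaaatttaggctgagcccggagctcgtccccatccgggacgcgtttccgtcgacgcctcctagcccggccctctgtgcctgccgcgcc

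Klf2, distal E-Box 1: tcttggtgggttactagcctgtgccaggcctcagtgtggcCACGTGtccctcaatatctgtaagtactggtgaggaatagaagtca

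Klf2, distal E-Box 2: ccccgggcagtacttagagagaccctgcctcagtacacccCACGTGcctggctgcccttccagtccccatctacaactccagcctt

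Klf2, distal E-Box 3: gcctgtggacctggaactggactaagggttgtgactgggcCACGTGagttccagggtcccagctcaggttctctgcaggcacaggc

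The 250 bases upstream of the Klf2 TSS had a GC content of 70.8% and held no CANNTG, the general form of the E-Box in which the central bases N are free (searched on both strands), while 63.5% of protein-coding genes hold at least 1 in this window. An E-Box 959 bp upstream of the TSS was not under a peak.

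Klf2 and Zfp42 lie on chromosome 8, where the Max list differed from the rest of the genome. The list held 6.34 Max peaks for each Bio-Myc peak there, beside 2.44 to 3.37 on the other 18 autosomes, and Max lay within 1 kb of a TSS in 60.6% of its protein-coding genes, beside 34.8% on the other autosomes. For Bio-Myc the shares were 16.7% and 15%. Of the protein-coding genes of chromosome 8, 9.52% had as many Max peaks within 50 kb as Klf2 or more, compared with 0.710% over all chromosomes. Bio-Myc overlapped 15% of the Max peaks on chromosome 8 and 27.9% held CACGTG, both below the lowest other autosome (21.4% and 32.3%). The part of this difference in the Max peaks of Klf2 and Zfp42 was not tested. Without both genes, Max lay within 1 kb in 6 of 8 members, and 22 of the 35 Max peaks remained.

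Klf4 (ENSMUSG00000003032.7, chromosome 4, minus strand, 55540013 to 55545347) had no peak of either list within 50 kb, although its promoter was the richest in CpG of the group. An E-Box lay 179 bp upstream of its outermost TSS. Of the 814 protein-coding genes with an E-Box within 1 kb of the outermost TSS and a CpG observed-to-expected ratio in the highest decile, 77.5% had a Max peak and 47.2% a Bio-Myc peak in that window. The nearest peaks were downstream and close to each other without overlapping. The Max peak (55492999 to 55493705, score 141) was 50.9 kb from a TSS, and the Bio-Myc peak (55487780 to 55488710, score 106) 55.9 kb. Each held 1 E-Box, and Klf4 had the nearest protein-coding TSS to both.

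Esrrb, an orphan nuclear receptor of the naive network, had more Bio-Myc peaks around it than any other member, all inside the gene. Esrrb (ENSMUSG00000021255.10) spans 87702067 to 87862578 of chromosome 12 (plus strand). It had 4 Bio-Myc and 5 Max peaks, and 1.47% of protein-coding genes had 4 or more Bio-Myc peaks within 50 kb. These counts pool the windows around all TSSs of a gene. The TSSs of Esrrb lie up to 143 kb from the outermost one, so more sequence was searched than for genes with TSSs close together. All 9 peaks were centred in introns, between 109.7 and 141.0 kb from the outermost TSS, which itself had no peak within 50 kb. The count within 1 kb came from an internal TSS, 109000 bp into the gene. A Max peak with a score of 236 (87811161 to 87812375) began 94 bp downstream of that TSS. A broad Bio-Myc peak with a score of 95.4 (87811721 to 87813552) began 654 bp downstream and overlapped this Max peak and a second one (87812972 to 87813669, score 83.5). The Bio-Myc peak held 4 E-Boxes, 1 under the first Max peak and 3 under the second. They are printed because no other Bio-Myc peak near these genes held as many (chr12:87811882-87812007, chr12:87812971-87813096 and chr12:87813294-87813425, mm9, plus strand, all intronic).

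Esrrb, E-Box 1: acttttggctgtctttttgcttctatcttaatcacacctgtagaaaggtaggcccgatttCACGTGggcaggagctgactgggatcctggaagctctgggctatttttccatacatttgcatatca

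Esrrb, E-Box 2: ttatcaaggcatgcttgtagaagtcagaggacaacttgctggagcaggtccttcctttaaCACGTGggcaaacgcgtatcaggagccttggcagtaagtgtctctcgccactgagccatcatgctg

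Esrrb, E-Boxes 3 and 4: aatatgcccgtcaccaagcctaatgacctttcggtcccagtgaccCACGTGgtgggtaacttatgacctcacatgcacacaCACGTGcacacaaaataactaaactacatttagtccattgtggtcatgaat

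The third box had C on its 5′ side on both strands, and the first had T on one strand. The boxes were 397 to 741 bp from the middle of the Bio-Myc peak, and 21 to 287 bp from the middles of the Max peaks. The medians over all E-Boxes under the peaks of each list were 169 bp (Bio-Myc) and 117 bp (Max). This Bio-Myc peak was 1832 bp wide and held 2.18 E-Boxes per kb, beside 2.82 in that of Stat3 and 2.60 in that of Klf2. The strongest Bio-Myc peak of Esrrb (87819314 to 87820375, score 158) lay 8247 bp downstream of the same TSS and contained the whole of a Max peak with a score of 140, and neither held CACGTG. The others lay before the last internal TSS, at 5017 bp upstream (score 137, no Max peak) and 2079 bp upstream (score 89.6, with a Max peak of score 87.05). A Max peak with a score of 86.5 lay between them, 3461 bp upstream of that TSS, without Bio-Myc or an E-Box. With a limit of 1e-15 on the p-value, 1 Bio-Myc peak of Esrrb was left, the one 8.25 kb from a TSS, so that Esrrb then had no Bio-Myc peak within 5 kb.

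Tcfcp2l1, a grainyhead-family factor downstream of Stat3, had a single peak within 150 kb. Tcfcp2l1 (ENSMUSG00000026380.9) occupies 120524522 to 120581744 of chromosome 1 (plus strand). A Max peak (120523988 to 120524980, score 181) was centred 38 bp upstream of its TSS and held neither CACGTG nor the related CACGCG on either strand, which occurred in 38% and 40.1% of all Max peaks. Bio-Myc was found no closer than 151 kb, upstream, with a score of 81.9. The 250 bases upstream of the TSS (chr1:120524272-120524521, mm9, plus strand) are printed with every CANNTG in capitals, as a promoter with Max and no canonical E-Box.

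Tcfcp2l1, upstream of the TSS: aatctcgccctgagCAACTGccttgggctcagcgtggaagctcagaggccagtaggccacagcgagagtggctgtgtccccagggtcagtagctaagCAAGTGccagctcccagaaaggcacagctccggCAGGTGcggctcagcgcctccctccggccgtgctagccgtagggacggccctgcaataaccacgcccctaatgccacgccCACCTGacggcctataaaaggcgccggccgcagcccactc

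This stretch held 4 CANNTG, beside a median of 1 over the same window of protein-coding genes.

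Sall4 and Zfp42, zinc finger factors expressed in ESCs, had Max peaks of low to middle rank. Sall4 (ENSMUSG00000027547.11, chromosome 2, minus strand, 168573832 to 168593443) had a Max peak with a score of 176 (168592167 to 168593001) over internal start sites 742 to 914 bp from the outermost one, centred in an exon with UTR sequence, and another with a score of 89.1 (168590514 to 168591121) over a start site farther in. Neither held CACGTG, and the second held 2 CACGCG. Another Max peak (score 136, 1 E-Box) lay 35.6 kb downstream, 6638 bp from a TSS of Atp9a. A Bio-Myc peak with a score of 94.5 lay 23.1 kb upstream without Max and without CACGTG. Zfp42 (ENSMUSG00000051176.5, chromosome 8, minus strand, 44380422 to 44392363), which encodes Rex1, had Max peaks 2294 bp and 10.7 kb downstream of its TSS, the second in a coding exon, and 47.5 kb upstream. The first and second held 1 E-Box each. Their scores of 92.5, 104 and 102.5 were above those of at most 21.9% of the Max list. No Bio-Myc peak lay within 1653 kb. The authors name Stat3, Sox2 and Zfp42 among the targets of Myc found in their study. Of these, only Stat3 had a Bio-Myc peak within 50 kb in the list examined here.

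**Figure D3:**
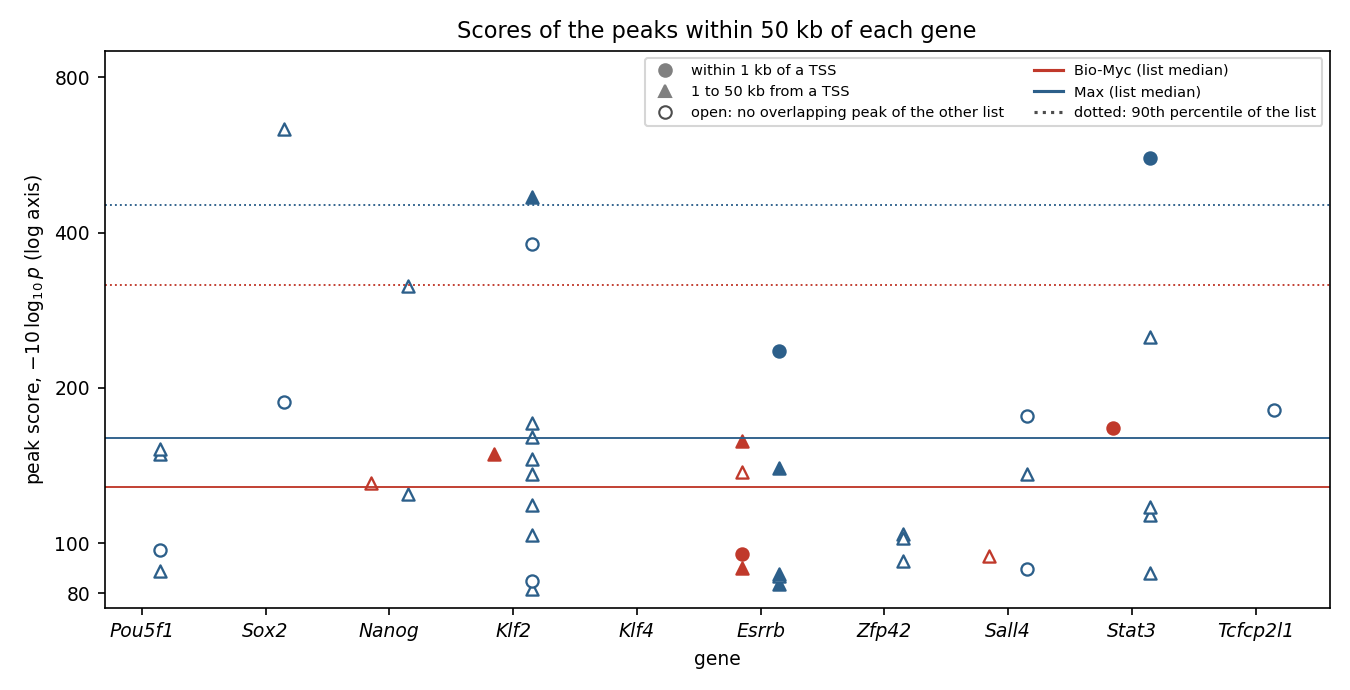
Scores of the Bio-Myc (red) and Max (blue) peaks within 50 kb of each gene, on a log axis, as circles within 1 kb of a TSS and triangles farther away, filled where a peak of the other list overlaps. Lines mark the median of each list and dotted lines its 90th percentile. Sox2, Klf2 and Stat3 have Max peaks above the 90th percentile, and no Bio-Myc peak of the group reaches it.

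The members with Max were set beside other genes of like Max score, in deciles of the highest Max score within 1 kb of a TSS. Among 7788 protein-coding genes with Max there, 36.4% also had Bio-Myc, and 2 of the 7 members did. The share was 10.8% in decile 1 and 68.3% (95% Wilson interval 64.9 to 71.5%) in decile 10, which held Stat3. Klf2, with Max at 380 and no Bio-Myc, was in decile 9, where 56.9% had Bio-Myc (53.4 to 60.4%). On chromosome 8, where Klf2 lies, the share in this decile was 39% (41 of 105 genes, 30.3 to 48.6%), beside 59.8% on the other autosomes. Esrrb was in a decile with 44.3%. Sox2, Sall4 and Tcfcp2l1, with Max scores between 176 and 188, fell in the same decile, with 31.7%, and Pou5f1 in a decile with 16.1%.

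**Figure D4:**
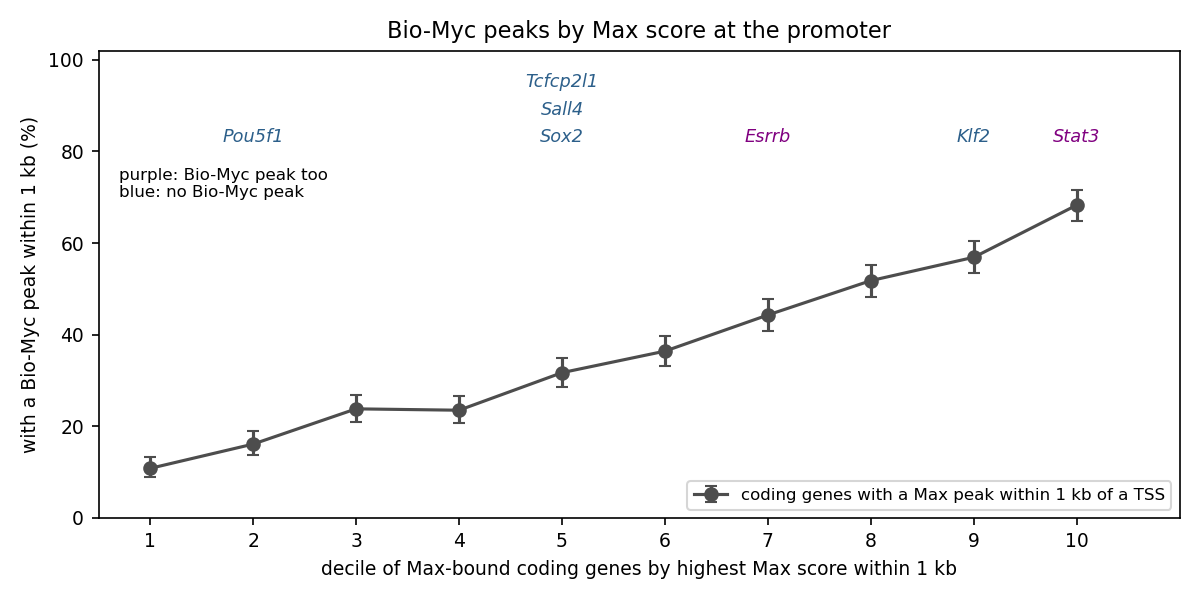
Share of protein-coding genes with a Bio-Myc peak within 1 kb of a TSS, by decile of the highest Max score in that window, over the 7788 genes with a Max peak there. Bars are 95% Wilson intervals, and the 7 members with Max are placed in their deciles. The share is 10.8% in decile 1 and 68.3% in decile 10, and Klf2, without a Bio-Myc peak of its own, stands in a decile with 56.9% over all chromosomes and 39% on its own chromosome 8.

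The CpG content of the promoters, which was not used to choose the genes, was set beside their peaks in the same way. Within 500 bp of the outermost TSS, the observed-to-expected ratio of CpG was 0.283 for Esrrb, 0.303 for Nanog and 0.335 for Pou5f1. In the decile of protein-coding genes with such values, 8.45% had a Max peak and 2.46% a Bio-Myc peak within 1 kb of the outermost TSS, and none of these 3 members had either there. The ratio was 0.661 for Stat3 and 0.713 for Klf2, in a decile with 53.3% and 20.5%. It was 0.841 for Sox2 and 0.960 for Klf4, in deciles with 64.1% and 64.3% for Max and 30.6% and 33.3% for Bio-Myc. Sall4, at 0.405, had a Max peak in a decile where 25.7% did, and Zfp42, at 0.487, had none in the same decile. The outermost TSS of Sall4 belongs to no coding transcript. The start sites under its Max peak lay 742 to 914 bp away, so the ratio does not describe the sequence around them. Tcfcp2l1, at 0.584, had Max in a decile with 42.3%.

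**Figure D5:**
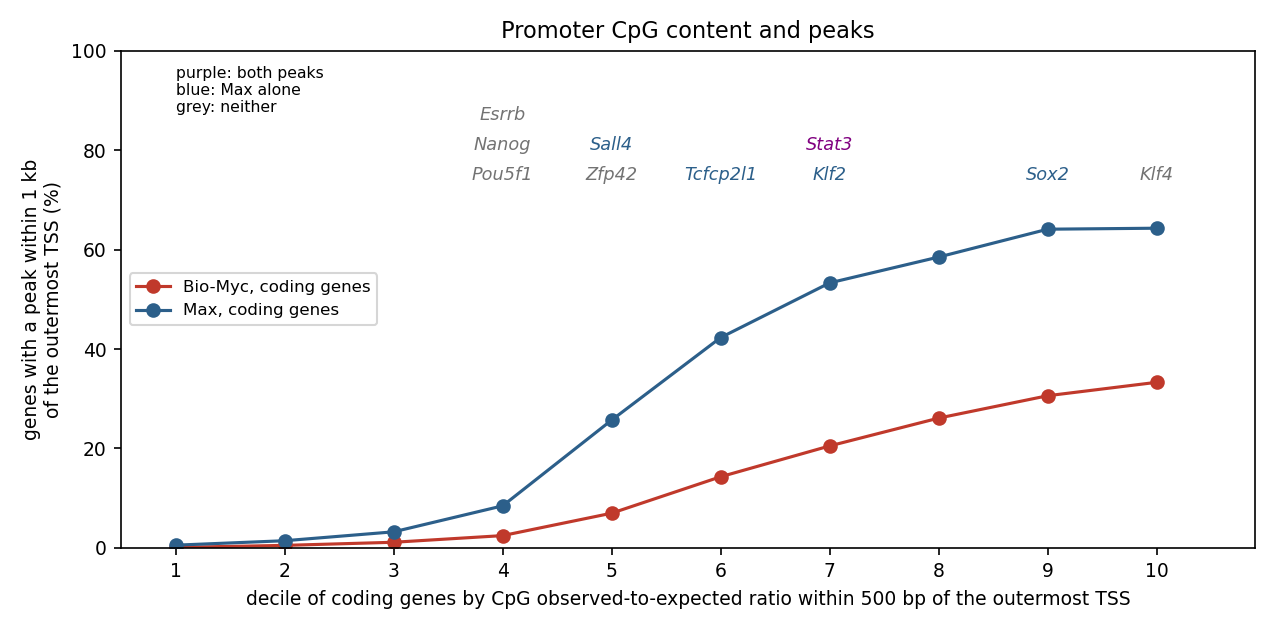
Share of protein-coding genes with a Bio-Myc (red) or Max (blue) peak within 1 kb of the outermost TSS, by decile of the CpG observed-to-expected ratio within 500 bp of it, with the 10 members placed above their deciles and coloured by their own peaks. The shares are 33.3% and 64.3% in the highest decile, where Klf4 has neither peak.

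A CACGTG under both proteins was found within 50 kb of 3 of the 10 genes, beside 18.5% of protein-coding genes. The E-Box occurred in 14 of the 35 Max peaks (40%), beside 38% over the list, and in 5 of the 8 Bio-Myc peaks (62.5%), beside 50.1%. In the central 500 bp of the peaks it occurred in 14 Max peaks and 2 Bio-Myc peaks, without a share over the lists to set beside them. There were 22 E-Boxes in all, 20 under Max and 12 under Bio-Myc, and the 10 under both were at Stat3 (3), Klf2 (3) and Esrrb (4). At the outermost promoters, 4 of the 10 genes had an E-Box within 1 kb (Sox2, Klf2, Klf4 and Stat3), beside 27.8% of protein-coding genes. Of the protein-coding genes with at least 3 E-Boxes there, which make up 1.1%, 81.8% had Max and 56.3% had Bio-Myc, and Stat3 was the member among them. A T on the 5′ side of the box on either strand was found in 5 of the 22 E-Boxes, or 22.7%. The same share was 30.1% under all Bio-Myc peaks, 33.7% under all Max peaks and 40.1% of all CACGTG on the autosomes. A C on the 5′ side on both strands was also found in 5 of the 22, or 22.7%. That share was 15.4% under all Bio-Myc peaks, 13.4% under all Max peaks and 9.34% of all CACGTG on the autosomes.

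Other genes of the pluripotency network were looked up in the same way, from a list of 43 names of which 42 matched the annotation. The name without a match was Lin28, listed beside Lin28a. Within 1 kb of a TSS, 6 of the 42 had Bio-Myc (14.3%, beside 14.6% of protein-coding genes), 16 had Max (38.1%, beside 34.8%), 3 had both and 23 neither. Both proteins covered a TSS of Utf1, a chromatin-associated factor of ESCs (Bio-Myc 369, Max 693), of Lin28a, an RNA-binding protein that blocks let-7 maturation (292 and 382), and of L1td1, an RNA-binding protein of ESCs (153 and 293). Bio-Myc without Max within 1 kb was found at Lifr, the LIF receptor (score 84.1), at Ptpn11, a phosphatase in the signalling of the receptor (89.35), and at Rif1, a telomere and replication timing factor (122). Lifr and Ptpn11 each had a Max peak within 5 kb, and Rif1 had none. Max without Bio-Myc was found at 13 genes, with the highest scores at Tcl1 (401), Sall1 (336), Pim1 (318), Klf5 (304) and Thap11 (275), of which Sall1 and Thap11 are on chromosome 8. By the role under which they were listed, Bio-Myc was at 2 of the 8 genes of the LIF pathway and 1 of 18 further core and naive factors. It was also at 3 of 16 genes expressed with the core factors, and Max was at 2, 9 and 5 genes of these lists. The lists were drawn broadly: the second holds Otx2 and both Tcf3 and Tcf7l1, and the third holds Fgf5. The LIF receptor chain Il6st and the kinases Jak1 and Jak2 had no peak within 5 kb, and Socs3, the feedback inhibitor of Stat3, had Max peaks within 5 kb but not within 1 kb.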

How the data were processed

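The processed files of the Bio-Myc and Max ChIPs were peak lists, 1 library each; those of the mock and IgG ChIPs were not analysed here. Per the labels and the methods, uniquely mapped reads (Bowtie 0.12.7 on mm9, at most 2 mismatches) were used by the authors after duplicates were collapsed, and MACS 1.4.1 set each ChIP against its mock or IgG control with a p-value limit of 1e-08. The deposited score is the negative log10 of the p-value times 10, which depends on depth and was not scaled between libraries. Reads without a unique position were not used, so peaks in repeats of near-identical sequence can be missing.

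Peaks were placed by overlap with windows around every TSS of a gene in GENCODE M1, on the same assembly as mm9. All 10 genes and every peak within 50 kb of them were named. The members and gene lists were chosen with earlier results of these data known, so no list was tested. Of the other pathway genes, those with Bio-Myc within 1 kb and the 5 highest-scoring with Max alone were named. Shares of all protein-coding genes or peaks served as background, with Wilson intervals for counting error. Motifs were counted on mm9 sequence, both strands. Alternatives were other windows, TSSs, overlap rules, p-value limits, list sizes and motif definitions. Chromosome 8 left out, and coding transcripts alone, were added after the data were seen. Python 3.11.15, pysam 0.24.0, scipy 1.17.1 and samtools 1.23.1 were used, and 3 of 3 steps tested on simulated data returned the known answers.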

Additional observations from a re-analysis of the deposited data

How the results depend on the processing

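The lists come from 1 library per ChIP with unknown depth, so the absence of a peak says only that none passed a p-value of 1e-08. No paired analysis was possible because each ChIP has 1 library. Of 95 alternatives over 15 counts, 62 stayed within 1.5 times the reported count. Some of the 62 could not move. Reducing the Max list leaves the counts of Bio-Myc alone as they are. The members on chromosome 8 had no Bio-Myc peak within 5 kb, so leaving them out could not change the Bio-Myc counts within 1 or 5 kb. The 2 members with Bio-Myc, and with both proteins, within 1 kb became 1 with the TSS covered, within 500 bp, with the outermost TSS, with peak centres and at 1e-15, and Stat3 was the gene left each time; within 5 kb the 2 became 1 with the outermost TSS and at 1e-15. With the Max list reduced to the size of the Bio-Myc list, the members with Max fell from 7 to 3 within 1 kb and from 8 to 3 within 5 kb, the Max peaks within 50 kb from 35 to 7, the other pathway genes with Max from 16 to 10 and the coding genes with Max from 7788 to 3467. At 1e-15, the other pathway genes with Bio-Myc fell from 6 to 3, coding genes with Bio-Myc from 3275 to 1532 and with Max from 7788 to 5066, peaks within 50 kb from 8 to 2 (Bio-Myc) and 35 to 13 (Max), and overlapping peaks from 5 to 1 (Bio-Myc) and 6 to 1 (Max). The 8 Bio-Myc peaks within 50 kb were 4 with the outermost TSS, since those of Esrrb dropped out. Of the Max peaks, 21 had a member as the nearest coding gene, and 22 were left without the genes on chromosome 8, 9 of them with an E-Box. CACGTG was in the central 200 bp of 2 Bio-Myc and 7 Max peaks and in the central 500 bp of 2 Bio-Myc peaks. These central counts have no share over the whole lists beside them. Any CANNTG was in 8 Bio-Myc and 34 Max peaks, beside 97.5% and 96.1% of all peaks of the lists. The settings that moved these counts keep fewer peaks, genes, start sites or bases, or admit more sequences. What set the size of the moves was not tested.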
